A study of Mus musculus with 15 samples.

Results

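The 41 genes described here belong to autophagy and mitophagy: receptors that mark mitochondria for removal, genes of mitochondrial fusion and fission, cargo receptors, the core machinery that builds autophagosomes, and lysosomal genes. They were picked by gene symbol, with earlier results of these data known. All 41 were found among the 18510 rows of a table of liver expression. All 41 were among the 10959 genes that were tested. The data are 15 liver samples of wild-type (WT) mice in 3 groups of 5, all per the labels: Ctrl mice on the control diet, Alc mice on the alcohol diet, and Alc UA mice on the alcohol diet with UA. UA is not spelled out in the labels, and strain, sex, age, alcohol dose, feeding time and hour of collection are not stated in the labels. The labels number 5 samples in each group, and it is not stated that each number is a separate animal, so p-values measure the spread between these samples. Levels are in FPKM, fragments scaled by transcript length and by the mapped fragments of the library, which allows levels of different genes to be compared per length. Differences are in log2(FPKM + 1) ± SE, which shrinks the changes of genes with low FPKM, and means are given ± SD with n = 5 per group. A gene was called when the p-value of limma, adjusted by Benjamini-Hochberg over all genes tested, was under 0.05.

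Autophagy encloses cytoplasm in a double membrane that fuses with the lysosome. The ULK kinase complex starts the process, a phosphatidylinositol 3-kinase complex marks the membrane, and a conjugation system attaches ATG8 proteins (the LC3 and GABARAP families) to it, where cargo receptors dock. In mitophagy the cargo is a mitochondrion, marked either through the kinase PINK1 or by receptors in the outer membrane such as BNIP3. The transcription factors TFEB and TFE3 control lysosomal and autophagy genes. In liver, autophagy supplies amino acids in fasting and takes part in the turnover of lipid droplets and damaged mitochondria. Transcript levels do not measure autophagic flux, which depends largely on protein modification and lysosomal degradation.

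TFEB and TFE3 are known to bind a motif written here as GTCACGTG, which contains the E-box CACGTG. Promoters of members were therefore searched for both. CACGTG reads the same on either strand, while GTCACGTG was searched on both strands and reads CACGTGAC on the other. Every GTCACGTG also counts as a CACGTG. RefSeq windows of GRCm38.p6, from 250 bases before to 50 after a transcript's start, were matched for 35 of the 41 members, with 43 promoters. CACGTG was found in 7 of these 43 promoters (16.3%) and in 2349 of all 32851 promoters (7.15%). GTCACGTG was found in 5 of 43 (11.6%) and in 738 of 32851 (2.25%). The stretches below belong to the 5 members that hold a motif and were called in at least 1 comparison, and capitals mark the motifs.
Lamp1, chr8:13159070-13159180, plus strand: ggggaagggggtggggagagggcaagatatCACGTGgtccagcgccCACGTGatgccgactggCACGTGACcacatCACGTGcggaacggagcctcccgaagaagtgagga
Atg7, chr6:114670932-114670999, plus strand: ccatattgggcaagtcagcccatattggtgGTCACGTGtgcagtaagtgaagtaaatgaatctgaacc
Atg3, chr16:45158703-45158793, plus strand: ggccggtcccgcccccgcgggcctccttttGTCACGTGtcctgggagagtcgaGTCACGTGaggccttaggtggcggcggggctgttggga
Atg14, chr14:47568415-47568465, minus strand: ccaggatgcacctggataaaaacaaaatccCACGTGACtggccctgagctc
Bnip3, chr7:138909579-138909644, minus strand: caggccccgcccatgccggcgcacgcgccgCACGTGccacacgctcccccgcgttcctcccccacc
Each is given 5′ to 3′ on the strand of its gene. Lamp1 held 4 copies of CACGTG, a number reached or passed by 8 of 32851 promoters (0.0244%). Atg3 held 2 copies of GTCACGTG. Tbk1 and Atg5 also held a motif and were called in no comparison. A match describes letters only: the 5 members shown moved in different directions, as given under each gene, and no binding was measured.

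Summed FPKM ranged from 551153 to 668832 over the libraries, and the number of reads behind them is unknown. On the first principal component of all genes Ctrl libraries lay between -48.4 and -6.04, Alc between 2.47 and 21.2 and Alc UA between 6.23 and 28.4, with Ctrl 5 nearest to the alcohol groups. Markers of some other cell types were lower in the alcohol groups. Among all genes tested, 10.6% were called higher and 22.8% lower in Alc, and 10.5% and 32.1% in Alc UA. Of 14 sinusoidal endothelial markers, 13 were called lower in Alc and 14 in Alc UA, with summed levels of 195 to 556 FPKM in Ctrl, 88.6 to 194 in Alc and 95.9 to 120 in Alc UA. Of 6 erythroid markers, 5 were called lower and 1 higher in both groups, with sums of 1434 to 8802, 579 to 991 and 350 to 1037 FPKM. All 4 tested B and plasma cell markers were called lower in both groups, and of 4 tested T and NK cell markers 4 were called lower in Alc and 3 in Alc UA. None of 12 Kupffer cell markers was called in Alc and 1 was called higher in Alc UA, and of 8 hepatocyte markers 2 were called lower in both, with hepatocyte sums of 36191 to 58220, 45127 to 63467 and 31959 to 51373 FPKM. Of 10 stellate cell markers 1 was called lower in each group, and of 4 tested cholangiocyte markers also 1. Of 5 tested neutrophil and monocyte markers 1 was called lower in Alc and 0 in Alc UA. No marker was at 0 in all libraries, while Cftr, Cd3d and Ly6g were at 0 in some. Their part in the results for the 41 genes was not tested, and in bulk liver fewer cells of a type and less RNA per cell cannot be told apart.

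In Alc against Ctrl, 10 of 41 members were called (24.4%), beside 33.3% of all genes tested. Mfn2, Opa1, Atg13, Pik3c3, Atg7, Map1lc3b and Lamp1 were called higher, 7 members or 17.1% against a background of 10.6%. Sqstm1, Map1lc3a and Tfe3 were called lower, 3 members or 7.32% against 22.8%. The median difference was -0.06 over the members and -0.12 over all genes tested, and single members ranged from -0.55 to 0.92. The count fell to 6 without Ctrl 1, 5 without Ctrl 2, 4 without Ctrl 4 and 5 without Alc 5, where the genes called over all tested also fell, from 33.3% to 27.0%, 26.2%, 25.6% and 23.5%. The number called higher was 4, 3, 2 and 3 without those same libraries, and 4 without Alc 4. Over all genes tested it was 1142 of 10838, 909 of 10869, 846 of 10873 and 845 of 10932. Without Alc 4 it was 979 of 10889. In the fits without Ctrl 1, 2 or 4 or Alc 5, members were called higher no more often than all genes. With both Ctrl 1 and Ctrl 5 left out, which stood apart on the first 2 principal components, 5 were called higher and 2 lower. Over all genes in that fit 1110 of 10799 were called higher and 2502 lower.

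In Alc UA against Ctrl, which shares its Ctrl libraries with the comparison above, 12 of 41 members were called (29.3%), beside 42.6% of all genes. Bnip3, Mfn1, Mfn2, Opa1, Atg13, Atg14 and Atg7 were called higher, 17.1% against a background of 10.5%. Fis1, Atg3, Map1lc3a, Gabarap and Tfe3 were called lower, 12.2% against 32.1%. The median difference was 0.01 over members and -0.16 over all genes, with a range of -0.41 to 0.87. The number called lower was 2 without Ctrl 1, 3 without Ctrl 2, 3 without Ctrl 4, 3 without Alc UA 1, 8 without Alc UA 4 and 2 without Alc UA 5. Over all genes these numbers were 2772, 3012, 3113, 2809, 3388 and 2794, with 10838 to 10949 genes tested. With Ctrl 1 and Ctrl 5 both left out, 6 were called higher and 5 lower, beside 1064 and 3422 of 10799 genes. Over both comparisons 16 of 41 members were called at least once and 25 in neither. That share was not computed over all genes, where it is at least the 42.6% called in Alc UA against Ctrl.

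In Alc UA against Alc none of the 41 members was called by limma, beside 1 gene called among all tested (0.00912%), which was higher (0.00912% higher and 0% lower). At an unadjusted p under 0.05 there was 1 member, Atg3, and 664 genes of 10959 (6.06%). The smallest adjusted p of a member in limma was 0.82, and the count was 0 under all 29 alternatives run. Differences ranged from -0.56 for Pik3c3 to 0.22 for Atg14, with a median SE of 0.11. The 95% interval of the difference was -0.18 to 0.28 for Mfn2, -0.13 to 0.21 for Pink1 and -0.21 to 0.12 for Map1lc3b, but -1.27 to 0.14 for Pik3c3.

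**Figure D1:**
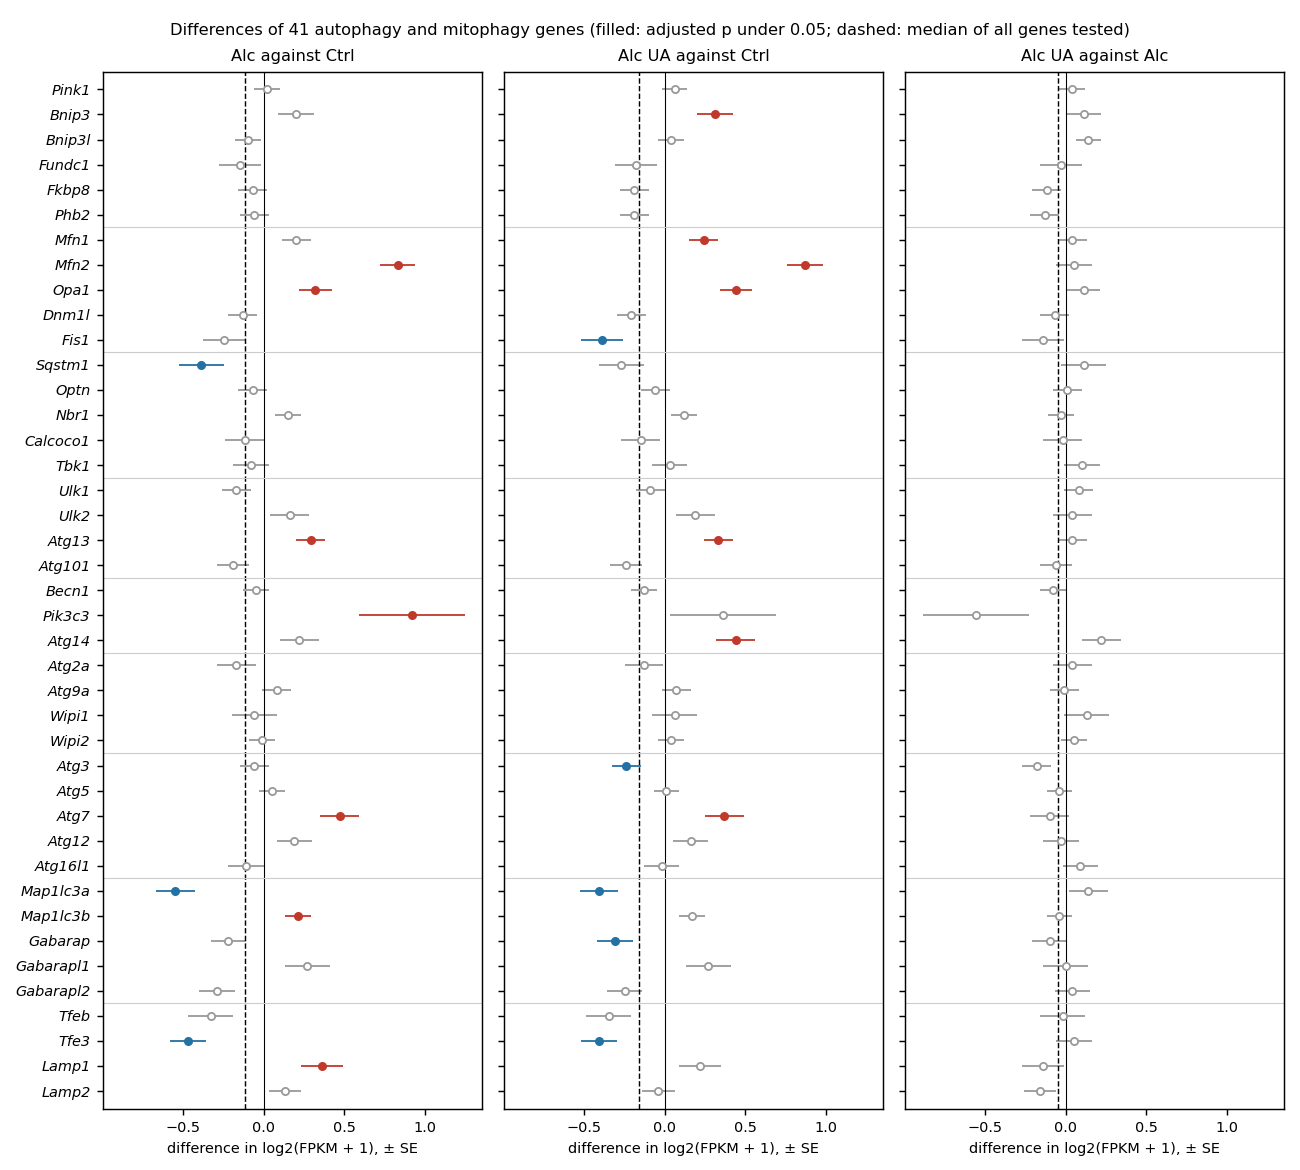
Differences in log2(FPKM + 1) with their SE for the 41 members in 3 comparisons, grouped by role. Filled points have a limma adjusted p under 0.05 and the dashed line is the median of all genes tested. Mfn2 stands at 0.83 and 0.87 in the comparisons with Ctrl, and no point is filled in Alc UA against Alc.

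The number of members called in each direction depended on how libraries were scaled. On the deposited scale the median difference of all genes from Ctrl lay at -0.12 in Alc and -0.16 in Alc UA. Scaling by median of ratios moved these medians to -0.012 and -0.004, and the higher and lower counts of members to 13 and 2 in Alc and 17 and 1 in Alc UA. Quantile normalization gave 12 and 2, and 13 and 3. Scaling all libraries to the same sum gave 10 and 2, and 7 and 2. The share of members called was then 36.6%, 34.1% and 29.3% in Alc under median of ratios, quantile and same sum, beside 36.1%, 37.2% and 26.4% of all genes. In Alc UA it was 43.9%, 39.0% and 22%, beside 43.7%, 44.3% and 35.1%. Among all genes the counts of 1157 higher and 2497 lower in Alc became 2012 and 1943 under median of ratios, and 1152 and 3521 in Alc UA became 2425 and 2362. Under quantile normalization they were 2049 and 2024, and 2420 and 2430, and under same-sum scaling 1602 and 1294, and 1310 and 2540. All members called higher on the deposited scale were also called higher under these 3 scalings. Of those called lower, Tfe3 kept its call under all 3 in both comparisons and Map1lc3a in Alc, while Sqstm1, Atg3 and Gabarap were called under none of the 3. Members not called on the deposited scale were called higher under some of these scalings. In Alc these were Mfn1 and Nbr1 under all 3 (limma adjusted p = 0.014 to 0.041 and 0.021 to 0.044), Bnip3, Atg14 and Atg12 under 2, and Gabarapl1 and Lamp2 under 1. In Alc UA they were Nbr1 (limma adjusted p = 0.011 to 0.023), Atg9a, Atg12, Map1lc3b, Gabarapl1 and Lamp1 under 2, and Pink1, Ulk2, Wipi2 and Atg5 under 1.

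**Figure D2:**
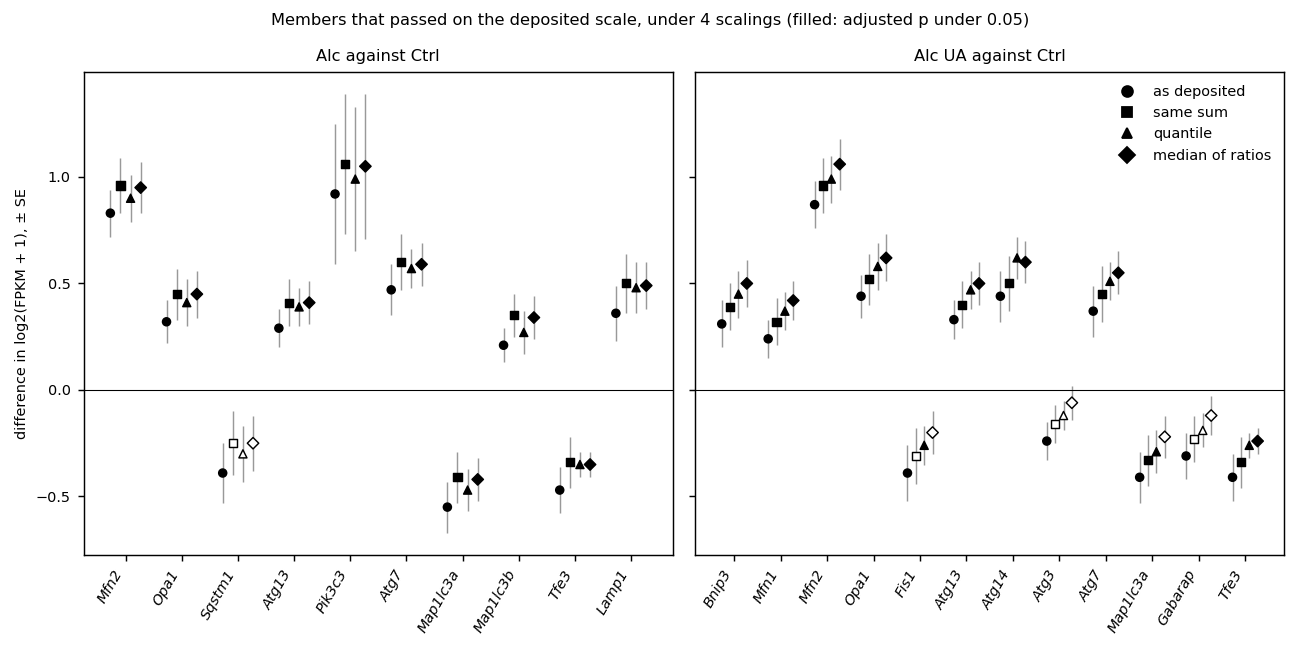
Differences in log2(FPKM + 1) with SE for the members called on the deposited scale, under that scale and 3 others. Filled symbols have a limma adjusted p under 0.05. Higher calls stay filled throughout, and Sqstm1, Atg3 and Gabarap are filled on the deposited scale alone.

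Among the genes that mark mitochondria for removal, Bnip3 was called higher in Alc UA and Pink1 did not pass the test. Pink1, the kinase that accumulates on damaged mitochondria, stood at 87.8, 101, 88.5, 86.2 and 78.3 FPKM in Ctrl, 87.4, 85.7, 91.9, 93.95 and 87.2 in Alc and 90.4, 82.2, 92.9, 102 and 92.4 in Alc UA. The 3 groups overlapped almost fully, with differences from Ctrl of 0.02 ± 0.08 in Alc (95% interval -0.15 to 0.19, limma adjusted p = 0.88) and 0.06 ± 0.08 in Alc UA (-0.12 to 0.23, limma adjusted p = 0.59). It was called in Alc UA against Ctrl under median-of-ratios scaling alone (limma adjusted p = 0.033). Bnip3, an outer membrane receptor that responds to low oxygen, read 176, 172, 163, 197 and 147 in Ctrl, 199, 181, 209.8, 198 and 191 in Alc and 229, 229, 181, 243 and 181 in Alc UA. The groups overlapped, with 3 Alc UA libraries above every Ctrl library. Bnip3 was higher than Ctrl by 0.31 ± 0.11 in Alc UA (limma adjusted p = 0.029), while the difference in Alc was 0.20 ± 0.11 (limma adjusted p = 0.16). The Alc UA call was lost without any 1 of Ctrl 2, 3 and 5 and Alc UA 1, 2 and 4 (limma adjusted p = 0.0504 to 0.075). Without Ctrl 1 and Ctrl 5 it was lost too (limma adjusted p = 0.11). Of the remaining receptors, Bnip3l, Fundc1, Fkbp8 and Phb2 were called in no comparison, with differences from Ctrl between -0.19 and 0.04. In Alc UA, Fkbp8 was called without Alc UA 4 (limma adjusted p = 0.038) and with library weights (0.024), and Phb2 with library weights (0.047). Per length, Bnip3 was the most abundant of the 6 by its mean over all libraries (193 FPKM) and Fundc1 the least (3.89).

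Among the mitochondrial dynamics genes, the fusion genes Mfn2 and Opa1 were higher in both alcohol groups and Mfn1 was called in Alc UA. Mfn2 had the smallest adjusted p of the 41 members in both comparisons with Ctrl. Mfn2, an outer membrane GTPase that fuses mitochondria and tethers them to the endoplasmic reticulum, stood at 23.8, 21.7, 26.2, 20.04 and 26.7 FPKM in Ctrl, 38.1, 39.9, 38.4, 47.7 and 49.9 in Alc and 45.8, 51, 38.2, 42.3 and 43.4 in Alc UA. Every alcohol library lay above every Ctrl library. Group means were 23.7 ± 2.84, 42.8 ± 5.6 and 44.1 ± 4.71 FPKM, ratios of 1.81 and 1.86 to Ctrl. The difference was 0.83 ± 0.11 in Alc (limma adjusted p = 1.2e-04) and 0.87 ± 0.11 in Alc UA (limma adjusted p = 5.6e-05), and both calls held under all 29 alternatives. Opa1, which fuses the inner membrane and shapes cristae, read 11.3, 13.7, 14.3, 11 and 13.3 in Ctrl, 15.8, 14.3, 15.97, 16.6 and 17.9 in Alc and 17.4, 19.7, 15.1, 20.1 and 15.7 in Alc UA. Alc UA lay wholly above Ctrl, and Alc met it at 1 library. Opa1 was higher by 0.32 ± 0.10 in Alc (limma adjusted p = 0.022) and 0.44 ± 0.10 in Alc UA (limma adjusted p = 0.0032). The Alc call was lost without Ctrl 1, Ctrl 4 or Alc 5 (limma adjusted p = 0.054 to 0.062), and at 0.065 without Ctrl 1 and Ctrl 5 together. Mfn1, the partner of Mfn2 in outer membrane fusion, read 12.3, 11.1, 12.4, 9.55 and 11.3 in Ctrl, 13, 12.5, 11.9, 13.3 and 14.9 in Alc and 13.7, 15.3, 11.8, 14.3 and 12.7 in Alc UA, with overlap. It was higher by 0.24 ± 0.09 in Alc UA (limma adjusted p = 0.044), with 0.20 ± 0.09 in Alc (limma adjusted p = 0.1), where it was called under all 3 other scalings. The Alc UA call was lost without any 1 of Ctrl 2, 4 and 5, Alc 1, 2 and 4 and Alc UA 1, 2, 4 and 5 (limma adjusted p = 0.051 to 0.11).

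On the fission side, Fis1, an outer membrane protein linked to fission, read 90.7, 74.7, 68.99, 84.9 and 63.4 FPKM in Ctrl, 52.7, 64.7, 64.3, 75.3 and 63.1 in Alc and 46.7, 61.7, 70.95, 60.9 and 50.4 in Alc UA. Of the Alc UA libraries 4 lay below every Ctrl library. The difference was -0.39 ± 0.13 in Alc UA (limma adjusted p = 0.023) and -0.25 ± 0.13 in Alc (limma adjusted p = 0.14). The call was lost without any 1 of Ctrl 1 and 4 and Alc UA 1 and 5 (limma adjusted p = 0.056 to 0.067) and under 2 of the 3 other scalings. Dnm1l, the GTPase that constricts mitochondria, was called in neither comparison with Ctrl, at -0.13 ± 0.09 and -0.21 ± 0.09, though it was called in Alc UA without Ctrl 5 or Alc UA 3 (limma adjusted p = 0.046 to 0.048). Ratios of members within a library are unchanged by any scaling that applies 1 factor per library, which quantile normalization does not. They do not remove the relation with transcript length described below. The longest protein-coding transcript was 6230 bases for Opa1 and 948 for Fis1, but 4341 for Mfn2, 4562 for Mfn1 and 3966 for Dnm1l. The part of length in the ratios was not tested. The 8 pairs computed were chosen after their values had been seen, so no test is given, and 3 of them (Bnip3 to Bnip3l, Gabarapl1 to Gabarap and Lamp1 to Lamp2) overlapped Ctrl in both alcohol groups. The ratio of Mfn2 to Mfn1 was 2.09 ± 0.174 in Ctrl, 3.26 ± 0.243 in Alc and 3.26 ± 0.177 in Alc UA. Mfn2 to Dnm1l went from 1.85 ± 0.245 to 3.73 ± 0.697 and 4.07 ± 0.634. Opa1 to Fis1 was 0.171 ± 0.0413, 0.255 ± 0.0367 and 0.309 ± 0.0585. For these 3 ratios every library of both alcohol groups lay above every Ctrl library.

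**Figure D3:**
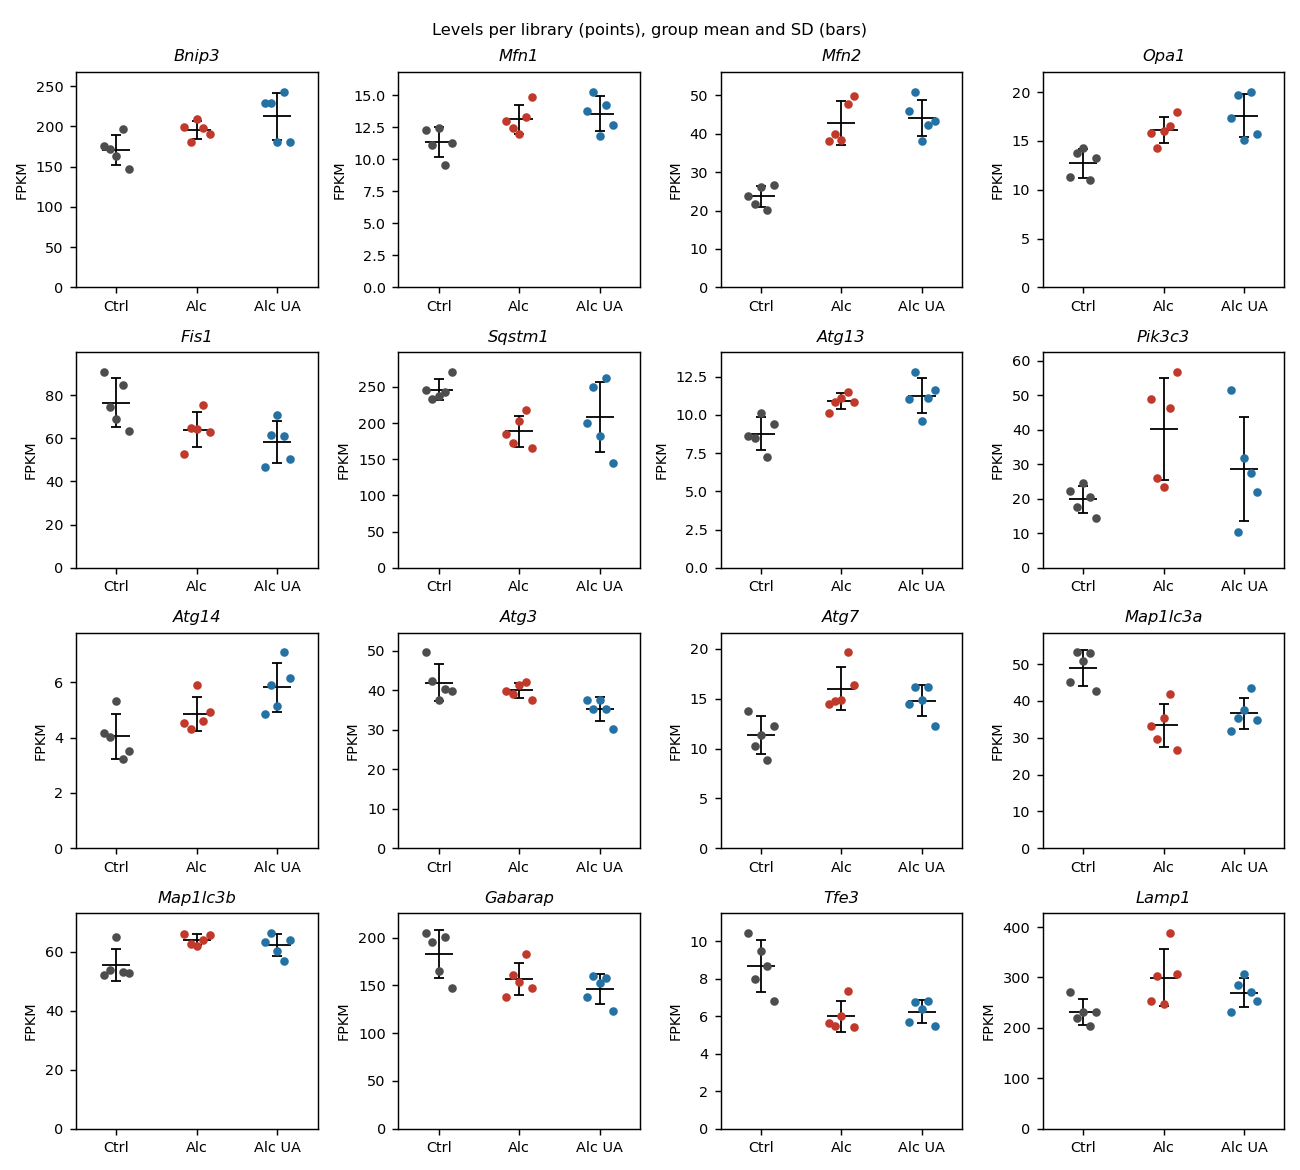
FPKM in each library (points) with group mean and SD (bars) for the 16 members called in at least 1 comparison, on axes that start at 0. Mfn2 separates both alcohol groups from Ctrl, while Pik3c3 spreads from 10.3 to 51.5 within Alc UA.

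Among cargo receptors the gene of p62 was lower in Alc. Sqstm1, which encodes p62 and links ubiquitin-tagged cargo to LC3, stood at 246, 234, 238, 243 and 270.5 FPKM in Ctrl, 185, 173, 203, 217 and 165 in Alc and 199.7, 250.1, 183, 263 and 145 in Alc UA. All Alc libraries lay below all Ctrl libraries, whereas Alc UA spread from 145 to 263 and overlapped both groups. Sqstm1 was lower, at -0.39 ± 0.14 in Alc (limma adjusted p = 0.045), with -0.27 ± 0.14 in Alc UA (limma adjusted p = 0.13). The call was close to the threshold: it was lost without any 1 of the 5 Ctrl libraries, Alc 1, 2 and 5 and Alc UA 1 (limma adjusted p = 0.054 to 0.11). It was lost under each of the 3 other scalings (0.093 to 0.24). In Alc UA it was called without Alc UA 4 (limma adjusted p = 0.045). Optn, Nbr1, Calcoco1 and Tbk1, the last a kinase that activates such receptors, were called in neither comparison on the deposited scale, with differences from -0.15 to 0.15, while Nbr1 was called higher under 3 other scalings in Alc and 2 in Alc UA. The ratio of Sqstm1 to Nbr1, another receptor of ubiquitinated cargo, was 4.83 ± 0.557 in Ctrl, 3.33 ± 0.488 in Alc and 3.72 ± 0.733 in Alc UA. Alc lay wholly below Ctrl in this ratio and Alc UA overlapped it.

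**Figure D4:**
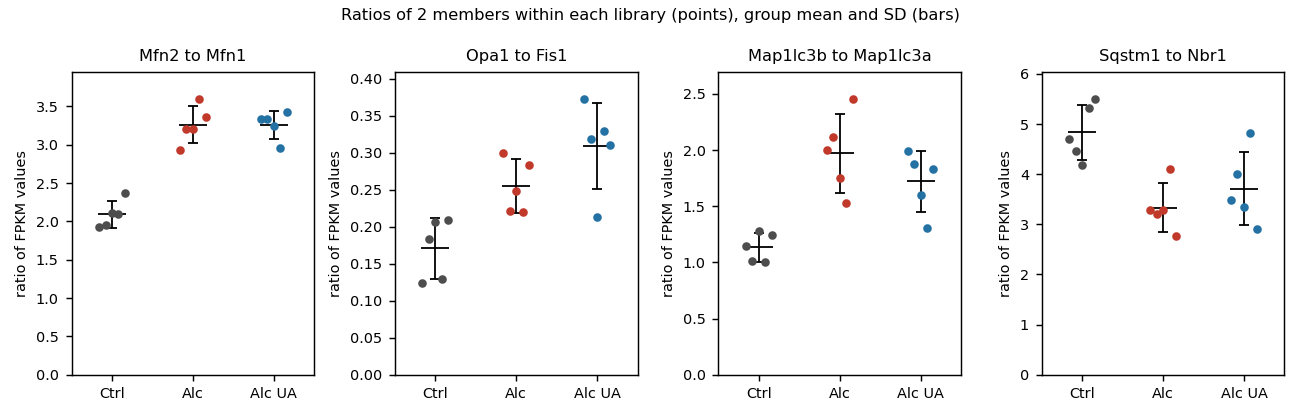
Ratios of FPKM values of 2 members within each library (points), with group mean and SD (bars), on axes that start at 0. Mfn2 to Mfn1, Opa1 to Fis1 and Map1lc3b to Map1lc3a lie higher in every alcohol library than in any Ctrl library, and Sqstm1 to Nbr1 lies lower in every Alc library.

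In the initiation complex 1 of 4 members was called in Alc and in Alc UA against Ctrl, beside 33.3% and 42.6% of all genes. Atg13, the adaptor that joins the ULK kinases to their scaffold, read 8.62, 8.5, 10.1, 7.23 and 9.39 FPKM in Ctrl, 10.1, 10.8, 11.1, 11.5 and 10.8 in Alc and 11.1, 12.8, 9.62, 11.1 and 11.6 in Alc UA. In each alcohol group 4 libraries lay above every Ctrl library. The gene was higher by 0.29 ± 0.09 in Alc (limma adjusted p = 0.023) and 0.33 ± 0.09 in Alc UA (limma adjusted p = 0.0094). Leaving out Ctrl 2 or Ctrl 4 ended the Alc call (limma adjusted p = 0.051 and 0.063). The kinase gene Ulk1 read 12.99, 13.01, 17.1, 13.03 and 14.7 in Ctrl, 11.6, 13.9, 11.6, 11.4 and 13.7 in Alc and 12.1, 12.9, 13.5, 12.8 and 14.6 in Alc UA, with overlapping groups. Its differences were -0.17 ± 0.09 (95% interval -0.37 to 0.02, limma adjusted p = 0.16) and -0.09 ± 0.09 (-0.28 to 0.11, limma adjusted p = 0.46). Ulk2 and Atg101 were not called, at 0.16 ± 0.12 and -0.19 ± 0.10 in Alc and 0.19 ± 0.12 and -0.24 ± 0.10 in Alc UA. In Alc UA, Atg101 was called without any 1 of Alc 3, Alc UA 3 and Alc UA 4 (limma adjusted p = 0.023 to 0.048), and Ulk2 without Ctrl 5 (0.048).

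The phosphatidylinositol 3-kinase complex held the most variable member. Pik3c3, the catalytic subunit VPS34, stood at 22.3, 17.6, 24.5, 20.6 and 14.4 FPKM in Ctrl, 48.8, 26.1, 23.3, 46.3 and 56.8 in Alc and 51.5, 10.3, 31.95, 27.4 and 21.9 in Alc UA. In Alc, 3 libraries lay between 46.3 and 56.8 and the other 2 at 23.3 and 26.1, within or just above the Ctrl range. In Alc UA 1 library lay at 51.5 and 1 at 10.3, below every Ctrl library. The SD within groups was 0.59 on the log2 scale, against 0.23 for the next member, Wipi1, a median of 0.16 over the members and 0.20 over all genes tested. That placed Pik3c3 at the 96.1 percentile of 1183 genes of similar level. Its difference was 0.92 ± 0.33 in Alc (limma adjusted p = 0.043) and 0.36 ± 0.33 in Alc UA (limma adjusted p = 0.4). The Alc call was lost without any 1 of Ctrl 1, 2, 4 and 5, Alc 1, 4 and 5 and Alc UA 4 and 5 (limma adjusted p = 0.051 to 0.11).

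Atg14, which directs VPS34 to autophagosome formation, read 4.16, 4.03, 5.34, 3.22 and 3.53 FPKM in Ctrl, 4.54, 4.32, 5.89, 4.59 and 4.94 in Alc and 4.86, 5.89, 5.13, 7.08 and 6.14 in Alc UA. Of the Alc UA libraries 3 lay above every Ctrl library. It was higher by 0.44 ± 0.12 in Alc UA (limma adjusted p = 0.0086), with 0.22 ± 0.12 in Alc (limma adjusted p = 0.16). The Alc difference was called without Ctrl 3 (limma adjusted p = 0.049). Becn1, the scaffold beclin 1, read 34.97, 31.2, 35.4, 34.9 and 29.5 in Ctrl, 31.7, 30.4, 30.6, 35.6 and 31.4 in Alc and 27.3, 32.95, 30.5, 33.1 and 27.7 in Alc UA. Its groups overlapped and its differences were -0.05 ± 0.08 (95% interval -0.23 to 0.12, limma adjusted p = 0.65) and -0.13 ± 0.08 (-0.30 to 0.05, limma adjusted p = 0.23). Downstream, none of Atg2a, Atg9a, Wipi1 and Wipi2, which supply lipid to the growing membrane or read its phosphoinositide, was called, and their differences from Ctrl lay between -0.17 and 0.08.

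Of the 5 conjugation genes, Atg7 was called higher in both comparisons and Atg3 lower in Alc UA. Atg7, the E1-like enzyme of the system, stood at 13.8, 10.3, 11.4, 8.82 and 12.3 FPKM in Ctrl, 14.5, 14.7, 14.9, 19.6 and 16.4 in Alc and 14.5, 16.1, 14.9, 16.2 and 12.3 in Alc UA. All Alc libraries and 4 Alc UA libraries lay above all Ctrl libraries. The means were 11.3 ± 1.91, 16 ± 2.16 and 14.8 ± 1.58 FPKM, with differences of 0.47 ± 0.12 in Alc (limma adjusted p = 0.0073) and 0.37 ± 0.12 in Alc UA (limma adjusted p = 0.019). Without Ctrl 4 the Alc UA call was lost (limma adjusted p = 0.054). Atg3, the E2-like enzyme that passes ATG8 proteins to lipid, read 49.6, 42.4, 37.6, 40.3 and 39.9 in Ctrl, 39.9, 39.1, 41.3, 42.1 and 37.6 in Alc and 37.6, 35.3, 37.7, 35.2 and 30.3 in Alc UA. It was lower, at -0.24 ± 0.09 in Alc UA (limma adjusted p = 0.031), with -0.06 ± 0.09 in Alc (limma adjusted p = 0.6). That call was lost under all 3 other scalings (limma adjusted p = 0.16 to 0.60) and without any 1 of Ctrl 1 and 2 and Alc UA 2, 4 and 5 (0.0502 to 0.088). Atg5, Atg12 and Atg16l1, which form the complex that completes lipidation, were not called, with differences between -0.11 and 0.19. With library weights Atg16l1 was called lower in Alc (limma adjusted p = 0.025).

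Within the ATG8 family, Map1lc3a was lower in both alcohol groups and Map1lc3b higher in Alc. Map1lc3a, which encodes LC3A, stood at 45.2, 53.2, 50.9, 52.9 and 42.6 FPKM in Ctrl, 33.1, 29.6, 35.5, 41.8 and 26.8 in Alc and 31.9, 35.3, 37.5, 43.4 and 34.9 in Alc UA. All Alc libraries and 4 Alc UA libraries lay below all Ctrl libraries. It was lower, at -0.55 ± 0.12 in Alc (limma adjusted p = 0.003) and -0.41 ± 0.12 in Alc UA (limma adjusted p = 0.011), the second lost under median-of-ratios scaling (limma adjusted p = 0.097). Map1lc3b, which encodes LC3B, the form most often used to mark autophagosomes, read 52.1, 53.9, 65.1, 53.2 and 52.7 in Ctrl, 66.03, 62.6, 61.9, 63.8 and 65.6 in Alc and 63.4, 66.3, 60.1, 56.95 and 63.96 in Alc UA. Ctrl 3 alone of the Ctrl libraries reached the alcohol range. It was higher by 0.21 ± 0.08 in Alc (limma adjusted p = 0.047), with 0.17 ± 0.08 in Alc UA (limma adjusted p = 0.092). Without Ctrl 3 the Alc UA difference was called (limma adjusted p = 0.02). The Alc call was lost in 13 of the 15 fits that left out 1 library, all but those without Ctrl 3 or Alc UA 4 (limma adjusted p = 0.051 to 0.097). A robust prior, the replicate number as a block and the 2 groups alone also ended the Alc call (limma adjusted p = 0.051, 0.077 and 0.082). Without Ctrl 1 and Ctrl 5 together it was lost too (0.18). In every library of both alcohol groups the ratio of Map1lc3b to Map1lc3a was above that of every Ctrl library. The ratio was 1.14 ± 0.126 in Ctrl, 1.97 ± 0.352 in Alc and 1.72 ± 0.27 in Alc UA. The longest protein-coding transcript was 2633 bases for Map1lc3b and 1112 for Map1lc3a, and the part of length in this ratio was not tested.

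Gabarap read 205, 195, 165, 201 and 147 FPKM in Ctrl, 138, 161, 153, 183 and 147 in Alc and 138, 159, 153, 158 and 123 in Alc UA, with overlap in both comparisons. It was lower, at -0.31 ± 0.11 in Alc UA (limma adjusted p = 0.036), with -0.22 ± 0.11 in Alc (limma adjusted p = 0.15). The Alc UA call was lost under the 3 other scalings (limma adjusted p = 0.073 to 0.29) and without any 1 of Ctrl 1, 2 and 4 and Alc UA 1 and 5 (0.077 to 0.097), and without Ctrl 5 the Alc difference was called (0.047). Gabarapl1, by its mean over all libraries the most abundant ATG8 transcript per length, was not called at 0.27 ± 0.14 and 0.27 ± 0.14, nor was Gabarapl2 at -0.29 ± 0.11 and -0.25 ± 0.11. Gabarapl1 was called in Alc UA without Ctrl 5 (limma adjusted p = 0.043), and Gabarapl2 in Alc without Alc 4 or Alc UA 4 (0.019 to 0.032) and in Alc UA without Alc UA 2 (0.0498). The summed level of the 5 genes was 574 ± 19.2 FPKM in Ctrl, 565 ± 29.4 in Alc and 561 ± 56.3 in Alc UA. Within that sum Map1lc3a made up 8.56 ± 1.05% in Ctrl, 5.88 ± 0.795% in Alc and 6.54 ± 0.603% in Alc UA. Gabarapl1 held 35.9 ± 5.85%, 43.5 ± 2.44% and 44.1 ± 3.44%, and Gabarap 31.9 ± 4.94%, 27.7 ± 1.86% and 26.0 ± 0.776%. These shares are a description and were not tested.

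**Figure D5:**
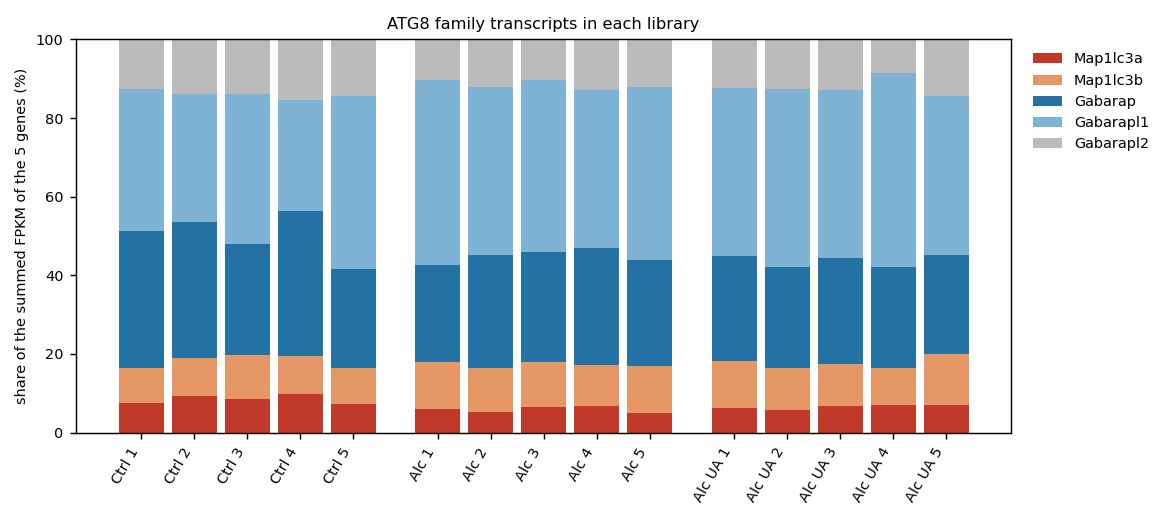
Share of each ATG8 gene in the summed FPKM of the 5 genes, in percent, for each of the 15 libraries. Map1lc3a holds 7.34 to 9.72% in Ctrl libraries, 4.9 to 6.78% in Alc and 5.72 to 7.11% in Alc UA.

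At the lysosome, the transcription factor gene Tfe3 was lower in both alcohol groups and the membrane protein gene Lamp1 was called higher in Alc. Tfe3 stood at 10.4, 7.97, 9.49, 8.69 and 6.83 FPKM in Ctrl, 5.64, 5.46, 6.01, 7.36 and 5.44 in Alc and 5.71, 6.74, 6.4, 6.82 and 5.47 in Alc UA. All Alc UA libraries and 4 Alc libraries lay below all Ctrl libraries. The difference was -0.47 ± 0.11 in Alc (limma adjusted p = 0.005) and -0.41 ± 0.11 in Alc UA (limma adjusted p = 0.007), and both calls held in every fit that left out 1 library. Tfeb, its relative, read 6, 4.65, 3.43, 4.55 and 3.06 in Ctrl, 2.59, 3.09, 3.67, 3.51 and 3.06 in Alc and 2.45, 3.2, 3.45, 3.63 and 2.99 in Alc UA. Tfeb was not called, at -0.33 ± 0.14 (95% interval -0.62 to -0.04, limma adjusted p = 0.071) and -0.35 ± 0.14 (-0.63 to -0.06, limma adjusted p = 0.0505). It was called in Alc without Ctrl 3 or Ctrl 5 (limma adjusted p = 0.017 to 0.048) and in Alc UA without Ctrl 3, Ctrl 5 or Alc UA 4 (0.012 to 0.046). With library weights Tfeb was called lower in both (limma adjusted p = 0.002 and 0.0051). In Alc UA it was also called with a stricter filter on low values (0.048) and without Ctrl 1 and Ctrl 5 together (0.047). Lamp1, an abundant lysosomal membrane glycoprotein, read 272, 219, 232, 204 and 231 in Ctrl, 253, 303, 248, 388 and 307 in Alc and 232, 284, 307, 271 and 254 in Alc UA. Of the Alc libraries 3 lay above every Ctrl library. It was higher by 0.36 ± 0.13 in Alc (limma adjusted p = 0.039), with 0.22 ± 0.13 in Alc UA (limma adjusted p = 0.17). Leaving out any 1 of Ctrl 2, 3 and 4 and Alc 2, 4 and 5 ended that call (limma adjusted p = 0.061 to 0.093). So did no filter on low values, the 2 groups alone and the replicate number as a block (limma adjusted p = 0.052, 0.067 and 0.072). Lamp2, which is needed for fusion with autophagosomes, was not called, at 0.13 ± 0.10 and -0.04 ± 0.10.

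Other genes of these pathways also moved in both directions, and none was called in Alc UA against Alc. The share called in a list was 9.09 to 35.7% in Alc, beside 33.3% of all genes, and 9.09 to 43.2% in Alc UA, beside 42.6%. Of 22 other mitophagy genes, 3 were called higher and 1 lower in Alc, and 1 higher and 5 lower in Alc UA. Vdac1, a channel of the outer membrane, rose from 98.4 ± 6.54 FPKM to 137 ± 9.26 in Alc and 124 ± 5.29 in Alc UA, by 0.47 ± 0.08 and 0.33 ± 0.08 (limma adjusted p = 5.8e-04 and 0.0034). Phb, a prohibitin, and Tomm22, a subunit of the import pore, were lower in Alc UA at -0.42 ± 0.11 and -0.38 ± 0.11 (limma adjusted p = 0.0066 and 0.01). Of 11 other fission and fusion genes tested, 0 were called higher and 1, Mtch2, lower in either comparison, at -0.25 ± 0.08 and -0.27 ± 0.08 (limma adjusted p = 0.022 and 0.011).

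Of 19 other autophagy core genes tested, 2 were called higher and 3 lower in Alc, and 4 and 4 in Alc UA. Uvrag, a partner of beclin 1, rose by 0.32 ± 0.09 and 0.44 ± 0.09 (limma adjusted p = 0.017 and 0.002), while Nrbf2, a subunit of the ATG14 complex, was lower at -0.45 ± 0.12 and -0.40 ± 0.12 (0.013 and 0.018). Among 13 fusion and tethering genes 0 were higher and 2 lower in Alc, and 0 and 3 in Alc UA. Vps16, of the complex that tethers vesicles to lysosomes, was lower at -0.59 ± 0.11 and -0.67 ± 0.11 (limma adjusted p = 0.0015 and 4.4e-04), and Tecpr1 at -0.55 ± 0.15 and -0.80 ± 0.15 (0.01 and 7.6e-04). Of 14 other selective receptors, 4 were higher and 1 lower in Alc, and 3 and 1 in Alc UA. Stbd1, the receptor for glycogen, rose from 28.1 ± 5.16 FPKM to 52.4 ± 3.87 and 54.1 ± 9.15, by 0.89 ± 0.13 and 0.92 ± 0.13 (limma adjusted p = 2.9e-04 and 1.4e-04). Ncoa4, the receptor for ferritin, rose by 0.34 ± 0.08 and 0.36 ± 0.08 (limma adjusted p = 0.0069 and 0.0038), and Sec62, a receptor for endoplasmic reticulum, was lower at -0.48 ± 0.08 and -0.53 ± 0.08 (7.8e-04 and 2.6e-04).

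Of 42 other lysosomal genes, 7 were higher and 6 lower in Alc and 6 and 6 in Alc UA. Atp6v1g1 and Atp6v1f, subunits of the proton pump, were lower in Alc at -0.77 ± 0.17 and -0.63 ± 0.15 (limma adjusted p = 0.0037 and 0.0051) and in Alc UA at -0.80 ± 0.17 and -0.75 ± 0.15 (0.0019 and 0.0013). Another subunit gene, Atp6v1c1, rose by 0.40 ± 0.09 in Alc UA (limma adjusted p = 0.0026). Npc1, a cholesterol exporter of the lysosome, rose by 0.48 ± 0.12 and 0.57 ± 0.12 (limma adjusted p = 0.0087 and 0.0021). Of 37 nutrient and energy sensing genes tested, 7 were higher and 5 lower in Alc, and 7 and 9 in Alc UA. Fnip2, a partner of folliculin, rose by 1.08 ± 0.16 and 1.07 ± 0.16 (limma adjusted p = 2.9e-04 and 1.9e-04). The transcription factor genes Foxo3 and Ppara rose in Alc by 0.76 ± 0.13 and 0.77 ± 0.14 (limma adjusted p = 7.2e-04 and 0.0013). Deptor, an inhibitor of mTOR, rose by 0.70 ± 0.10 in Alc UA (limma adjusted p = 1.2e-04). Clock genes moved far more: of 19 tested, 13 were higher and 4 lower in each alcohol group. Dbp stood at 4.31 ± 1.38 FPKM in Ctrl, 83.3 ± 25.8 in Alc and 73.3 ± 14.1 in Alc UA, and Arntl at 9.74 ± 1.79, 1.21 ± 0.194 and 0.912 ± 0.282. Their part in the results for the 41 genes was not tested.

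Transcript length moved with the differences. Across 10739 genes with a length in GENCODE M21, Spearman's rho between the longest protein-coding transcript and the difference was 0.23 in Alc and 0.29 in Alc UA against Ctrl, and 0.24 in Alc UA against Alc. Over the 41 members rho was 0.36, 0.48 and 0.26. With the median length of a gene's protein-coding transcripts it was 0.18, 0.22 and 0.17 over all genes and 0.26, 0.38 and 0.26 over members. The median-length values were computed first, and the longest transcript was added after they had been seen, because annotated fragments shorten the median. Genes share libraries and are not independent replicates, so these are descriptions without a p. In Alc UA the 7 members called higher had a median longest transcript of 3895 bases and the 5 called lower 1351 bases, with 3881 and 2442 over all genes called. In Alc these were 3604 and 2673 for members, and 3430 and 2446 for all genes. The part of length in the calls was not tested.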

How the data were processed

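RNA of 15 mouse liver samples was sequenced after phenol-chloroform extraction, per the labels' protocols. FPKM, the unit of the single table deposited by the authors, is given there for 18510 gene symbols. The submitters' processing notes list StringTie, DESeq, RSEM 1.2.8, HISAT2 2.1.0 and Bowtie2 2.2.5 but no roles for them. The build, the annotation and any use of strand were not given in the sources used here, so overlapping genes and close copies could share reads. Columns were assigned by matching their letter and number to the sample titles.

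Since FPKM are not counts, count models were not applied, and depth and counting error are unknown. The model used log2(FPKM + 1). The filter kept 10959 genes that reached 1 FPKM in 5 or more of the 15 libraries, while 223 rows were 0 throughout. In R 4.3.3, limma 3.58.1 fitted a linear model over 3 groups, using a mean trend, 12 residual degrees of freedom and Benjamini-Hochberg adjustment at 0.05 in each comparison. The fit was tested on simulated data. The deposited scale was kept for the main result. Alternatives were pseudocounts of 0.5 and 0.1, no filter and a stricter filter. The stricter filter kept genes with at least 1 FPKM in all 15 libraries or a mean of at least 5 FPKM. Other alternatives were 3 scalings, no trend, a robust prior, library weights and a fold threshold of 1.2. The rest were the 2 groups alone, the replicate number as a block and each library left out. A fit without Ctrl 1 and Ctrl 5 was added after seeing the data.

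The members and lists were chosen with earlier results of these data known. Values per library are given for each member called in at least 1 comparison and for Pink1, Sqstm1, Map1lc3b, Ulk1, Becn1 and Tfeb, and from pathway lists up to 4 called genes with the smallest p were eligible, of which only a part is printed. Figures used matplotlib 3.10.9 in Python 3.11.15.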

Additional observations from a re-analysis of the deposited data

Results flagged for a closer look

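Within groups of 5 libraries, 7 of 123 combinations of member and group (5.69%) held a library whose gap to the nearest other, divided by the range of the group, passed Dixon's critical value of 0.71. Chance flags about 1 in 20 groups. Of the 7, 4 were in Alc 4: Fundc1 at 5.06 FPKM (other Alc libraries 3.24 to 3.69), Becn1 at 35.59 (30.4 to 31.7), Atg12 at 18.33 (12.6 to 14.2) and Lamp2 at 356.85 (288 to 306), all above the rest of the group. Fundc1 stood at 5.58 FPKM in Ctrl 1, with the other Ctrl libraries at 3.71 to 4.15. Map1lc3b stood at 65.08 in Ctrl 3, with the others at 52.0 to 53.9. Optn was low in Alc UA 5, at 46.26, with the others at 56.6 to 59.5.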

How the results depend on the processing

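No called member changed sign under any of the 29 alternatives. With library weights, 19 members were called in Alc against Ctrl (9 lower) and 20 in Alc UA against Ctrl (10 lower), 46.3% and 48.8% beside 53.6% and 51.7% of all genes. The members added in Alc were Mfn1, Dnm1l, Fis1, Ulk2, Atg16l1, Gabarap, Gabarapl1, Gabarapl2 and Tfeb. In Alc UA they were Fkbp8, Phb2, Atg101, Map1lc3b, Gabarapl1, Gabarapl2, Tfeb and Lamp1. With a fold threshold of 1.2, 1 was called in each, higher, and 0 lower, 2.44% beside 6.36% and 11.7% of all genes. Quantile normalization gave 12 higher in Alc, and 13 higher and 3 lower in Alc UA. Median-of-ratios scaling gave 13 higher in Alc, and 17 higher and 1 lower in Alc UA. Same-sum scaling gave 2 lower in Alc UA. With the 2 groups alone, 3 were lower in Alc UA, beside 3054 of 10959 genes. The cause was not tested. Leaving out each library in turn gave 4 to 10 calls in Alc (2 to 7 higher, 2 to 4 lower) and, in Alc UA, 8 to 14 (5 to 7 higher, 2 to 8 lower). Over all genes the share called in these fits was 23.5 to 41.1% in Alc and 35.1 to 49% in Alc UA. Without Ctrl 1 and Ctrl 5, an alternative chosen after seeing the data, 5 were higher and 2 lower in Alc, and 6 and 5 in Alc UA. The shares called were then 17.1% and 26.8%, beside 33.4% and 41.5% of all genes.

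The labels do not state whether equal replicate numbers pair samples, and correlations of 5 such pairs per comparison cannot decide it. Residuals of same-numbered libraries correlated at -0.30 to 0.24 between Ctrl and Alc, -0.22 to 0.29 between Ctrl and Alc UA and -0.11 to 0.18 between Alc and Alc UA. For libraries of different number these ranges were -0.30 to 0.34, -0.32 to 0.33 and -0.35 to 0.33. With the replicate number as a block, 5 members were higher and 2 lower in Alc, 6 and 7 in Alc UA, and 0 in Alc UA against Alc. The shares called were 17.1% and 31.7% against Ctrl, beside 32.4% and 41.4% of all genes.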
